A study of Emberiza melanocephala with 15 samples.

Results

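Hypothalamic RNA of photorefractory and photosensitive blackheaded buntings was compared at hour 18 of a day on which the light stayed on, using the 4 libraries of that hour out of 15 in all. Estimated counts of assembled transcripts were summed per assembled gene, and 37422 of 317533 assembled genes were kept, those that reached an estimated count of 5 in 2 or more of these libraries. The genes that differed between the states were then followed at hours 10, 14 and 22 of both states, to see which state stood away from its own earlier level. All birds were adult males caught from the wild, each library came from 1 bird, and hours count from light onset. The Refractory birds had been held on long days until they became photorefractory and stayed on them. The Sensitive birds had been held on short days, which were shortened further in the weeks before sampling. On the sampling day the light-off was taken away for both states, and birds were collected at hours 10, 14, 18 and 22. Each group had 2 birds, except Refractory hour 22 with 1 bird. State and light history go together in this design and cannot be told apart. Birds of successive hours were different birds, so a change with hour is a difference between groups and not within a bird.

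Photoperiodic songbirds read day length through light received in the deep brain, and light falling late in the day acts as a long-day signal. In photosensitive birds that signal reaches the pars tuberalis and the mediobasal hypothalamus, where thyrotropin and the deiodinase enzymes set the local level of active thyroid hormone ahead of gonadotropin-releasing hormone and gonadal growth. Photorefractory birds, which have already passed through a breeding phase, no longer respond to long days with gonadal growth. The deposited tables pair the assembled identifiers with no gene name or sequence. The genes below are therefore given by identifier without a function, the tissue could not be checked against marker genes, and no pathway could be counted.

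The hour 18 libraries differed in depth and in fragment length as well as in state. The Refractory hour 18 birds had 3441451 and 3176062 pseudoaligned reads, against 5072773 and 4809916 in the Sensitive hour 18 birds, and the other 11 libraries had 4306137 to 9403923. Fragment length was taken as the difference between transcript length and effective length, as a median over long transcripts. It was 230 and 208 nt in the Refractory hour 18 birds, 254 and 250.4 nt in the Sensitive hour 18 birds, and 241 to 262 nt in the others. Genes with a count above 0 numbered 69467 and 67260 in the Refractory hour 18 birds, against 109991 and 87988 in the Sensitive hour 18 birds. Across genes, the median r of log2 CPM (counts scaled by library size) with the birds of hours 10 and 14 was 0.875 and 0.858 in the Refractory hour 18 birds, against 0.925 and 0.870 in the Sensitive hour 18 birds. Within the Sensitive hour 18 group, bird 2 thus stood further from the earlier birds than bird 1, and results that it moved are given without it. The r values are across genes, which are not independent replicates.

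At hour 18 the birds differed between the states in 44 assembled genes, of which 12 were higher and 32 lower in Refractory birds. These calls made up 0.118% of the genes tested (0.0321% higher and 0.0855% lower). A call needed a Benjamini-Hochberg adjusted p of 0.05 or less from the quasi-likelihood test of edgeR. The lowest adjusted p was 0.0388, and 6654 genes had an unadjusted p under 0.05. The fitted difference had a median of 3.15 on the log2 scale (8.86-fold higher) in the 12 higher genes, with a range of 2.05 to 7.43. In the 32 lower genes it had a median of -4.11 (17.3-fold lower), against -0.01 over all genes tested. The birds of the states did not overlap in any of the 44 genes, as in 52.4% of all genes tested (23.9% higher and 28.5% lower in Refractory birds). The genes just inside the threshold had an adjusted p of 0.0490, and the next gene had 0.0508. In bulk RNA, fewer cells of a type and less RNA per cell cannot be told apart.

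The number of calls depended on single birds. Without the Refractory hour 18 bird 2 it was 0, with a smallest adjusted p of 0.318, and without the Refractory hour 18 bird 1 it was 152. Without the Sensitive hour 18 bird 1 it was 4926, and without bird 2 it was 859. Where a group was left with 1 bird, its spread was taken to equal that of the other group. Of the 44 genes, 42 stayed called without the Refractory hour 18 bird 1 and 44 without each Sensitive hour 18 bird. The sign of the difference was the same in all 44 in each of these fits. The birds of the states did not overlap in these genes, so leaving out 1 bird could hardly turn a sign, and this carries no test. With every library thinned to the depth of the shallowest, 122 genes were called, and these held all 44. With the effective length of each gene in each library as an offset, 189 genes were called, and these again held all 44. In the fit of all 15 libraries, 3251 genes were called at hour 18 (8.69%, with 3.15% higher and 5.54% lower). These held all 12 higher and 31 of the 32 lower genes. The longer lists came from the same hour 18 birds and the same test. That they held nearly all 44 genes was thus partly set in advance and carries no test. With limma on log2(TPM + 0.1), 345 genes were called, 6 of the 44 among them. With limma on log2(TPM + 1), 0 genes were called.

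The higher genes with the smallest p were TRINITY_DN93464_c5_g3, an assembled gene of 1 transcript of 357 nt, and TRINITY_DN80742_c4_g1, of 1 transcript of 220 nt. TRINITY_DN93464_c5_g3 had 1088 and 1179 CPM (counts scaled by library size and TMM factors) in the Refractory hour 18 birds, against 111 and 113 CPM in the Sensitive hour 18 birds. It was 10.1-fold higher in Refractory birds (log2 fold change 3.33 ± 0.273, SE, n = 2 each, edgeR adjusted p = 0.0388). The birds of hours 10 and 14 lay far below the Refractory hour 18 birds, with 199, 186, 234 and 155 CPM in Refractory birds and 161, 85.4, 104 and 122 CPM in Sensitive birds. At each of these hours both Refractory birds were above both Sensitive birds, the same direction as at hour 18. At hour 22 it had 142 CPM in the Refractory bird, against 103 and 119 CPM in the Sensitive birds. Only the Refractory hour 18 birds were high, and no other bird of the 15 had more than 234 CPM.

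TRINITY_DN80742_c4_g1 had 848 and 1123 CPM in the Refractory hour 18 birds, against 98.1 and 127 CPM in the Sensitive hour 18 birds, a difference of 8.76-fold (log2 fold change 3.12 ± 0.309, SE, n = 2 each, edgeR adjusted p = 0.0388). At hours 10 and 14 it had 113 to 190.2 CPM in the 4 Refractory birds and 71.1 to 136 CPM in the 4 Sensitive birds. It had 285 CPM in the Refractory bird of hour 22, against 204 and 222 CPM in the Sensitive birds. Both hour 18 Refractory birds were above all others. The transcript of this gene, 220 nt, was shorter than the median fragment length of every library except the Refractory hour 18 bird 2 (208 nt). With the effective length as an offset the log2 fold change was 3.14. The part of fragment length beyond that fit was not tested. The states did not separate when counts were summed over the assembly cluster of this gene. A cluster joins assembled genes that share sequence, and the other called gene of the same cluster, TRINITY_DN80742_c4_g4, had 463 and 406 CPM in the Refractory hour 18 birds, against 61.7 and 70.2 CPM in the Sensitive hour 18 birds. The whole cluster had 3268 and 5435 CPM in the Refractory hour 18 birds, against 2820.3 and 6528 CPM in the Sensitive hour 18 birds, values that overlap. Most of this sum was TRINITY_DN80742_c4_g2, a gene that was not called and was picked with its values in view. It had 1957 and 3905 CPM in the Refractory hour 18 birds, against 2660 and 6330 CPM in the Sensitive hour 18 birds. The sum thus mainly followed that gene. How reads were divided among the assembled sequences of the cluster was not tested.

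The lower genes with the smallest p were TRINITY_DN73660_c0_g1, of 3 transcripts up to 549 nt, and TRINITY_DN97353_c1_g6, of 1 transcript of 660 nt. TRINITY_DN73660_c0_g1 had 4.39 and 6.88 CPM in the Refractory hour 18 birds, against 109.8 and 184 CPM in the Sensitive hour 18 birds. It was 26.1-fold lower in Refractory birds (log2 fold change -4.72 ± 0.442, SE, n = 2 each, edgeR adjusted p = 0.0388). At hours 10 and 14 the 4 Refractory birds had 136, 108, 139 and 77.0 CPM and the 4 Sensitive birds had 114, 71.4, 97.0 and 98.3 CPM. At hour 22 the Refractory bird had 22.2 CPM, against 13 and 21 CPM in the Sensitive birds. The birds of hours 10 and 14 were alike in both states, the Refractory birds stood apart at hour 18, and all 3 birds of hour 22 were low.

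TRINITY_DN97353_c1_g6 had 4.70 and 7.22 CPM in the Refractory hour 18 birds, against 120.3 and 230.3 CPM in the Sensitive hour 18 birds, and was 29.4-fold lower in Refractory birds (log2 fold change -4.89 ± 0.470, SE, n = 2 each, edgeR adjusted p = 0.0388). The birds of hours 10 and 14 had 40.3 to 82.2 CPM in the 4 Refractory birds and 51.7 to 133 CPM in the 4 Sensitive birds. The bird of Refractory hour 22 had 37.4 CPM, against 21.8 and 21.9 CPM in the Sensitive birds. The Refractory hour 18 birds had the lowest values of all 15, and the Sensitive hour 18 bird 2 had the highest.

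**Figure D1:**
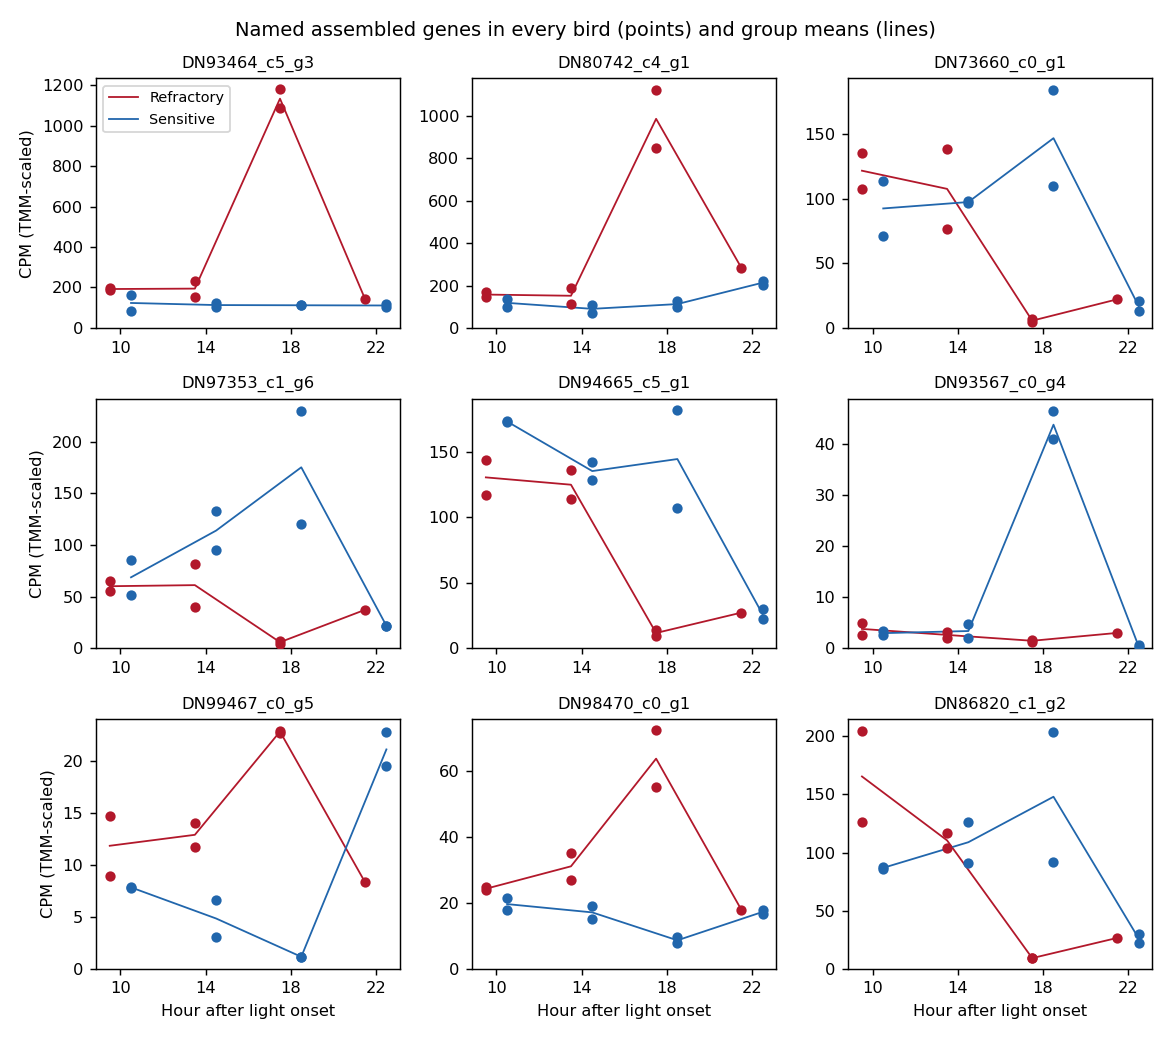
CPM (vertical axes, starting at 0) of the 9 assembled genes named by rule, in every bird by hour after light onset, with Refractory birds in red, Sensitive birds in blue, points for birds and lines through group means. In TRINITY_DN93464_c5_g3 the Refractory hour 18 birds reach 1088 and 1179 CPM and no other bird exceeds 234 CPM, while in TRINITY_DN93567_c0_g4 the Sensitive hour 18 birds, at 41.1 and 46.6 CPM, stand apart.

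The genes at both ends of the range of fitted differences are named here after their values were seen. TRINITY_DN72670_c0_g1 had 41.1 and 43.7 CPM in the Refractory hour 18 birds, against 0 and 0.454 CPM in the Sensitive hour 18 birds, and at most 1.21 CPM in any of the other 11 birds. Only the Refractory hour 18 birds were high. TRINITY_DN99217_c3_g2 had 0 CPM in both Refractory hour 18 birds, against 26.7 and 40.4 CPM in the Sensitive hour 18 birds. A count of 0 allows up to 3 counts, here 0.940 and 1.03 CPM in the Refractory hour 18 birds for counting error only, which makes it at least 34-fold lower in Refractory birds. With this gene set at that bound the median of the 32 lower genes remained -4.11. Both genes named here passed the count filter only through the state where they were high.

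Which state departed was asked by comparing hour 18 with hours 10 and 14 of the same state. Hours 10 and 14 fell after the usual light-off of Sensitive birds, but within the usual light period of Refractory birds. Hour 18 fell after the usual light-off of both. The earlier levels of the states thus differed in light, and this cannot be told apart from state here. In the fit of all 15 libraries, 9 of the 12 higher genes rose in Refractory birds at hour 18 and 27 of the 32 lower genes fell. Over all genes tested, 3.66% changed, with 1.02% higher and 2.64% lower. In Sensitive birds, 1 of the 44 genes changed, against 0.00534% of all genes tested, which is 2 genes, both higher. At an unadjusted p under 0.05, 13 of the 32 lower genes were higher in Sensitive birds at hour 18, and 4 of the 12 higher genes were lower, against 2206 higher and 2249 lower of all 37422 genes tested. The median change in Refractory birds was 1.99 on the log2 scale in the higher genes and -3.35 in the lower genes, and that in Sensitive birds was -0.45 and 0.62. Over all genes tested the medians were -0.01 in Refractory birds and -0.02 in Sensitive birds. The 44 genes were chosen on the same hour 18 libraries, so these counts describe the genes and carry no test of the list.

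The difference between the changes of the states was called in 7 of the 12 higher genes, all more upward in Refractory birds, and in 28 of the 32 lower genes, all more downward, against 1.08% of all genes tested (0.128% higher and 0.957% lower). The higher and lower genes were chosen on the same hour 18 libraries, so these counts describe them and carry no test. Single birds moved these counts too. For the change of Refractory birds, 5 higher and 19 lower genes remained without the Refractory hour 18 bird 1, and 6 and 19 without bird 2. For the difference between the changes, none remained without the Refractory hour 18 bird 1, with a smallest adjusted p of 0.0532 over all genes. It was called in 4 higher and 18 lower genes without the Refractory hour 18 bird 2, and in 2 and 16 without the Sensitive hour 18 bird 2. In Sensitive birds, 0 of the 44 genes changed without their hour 18 bird 2 or their hour 14 bird 1, and 3 of the lower genes changed without their hour 18 bird 1.

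**Figure D2:**
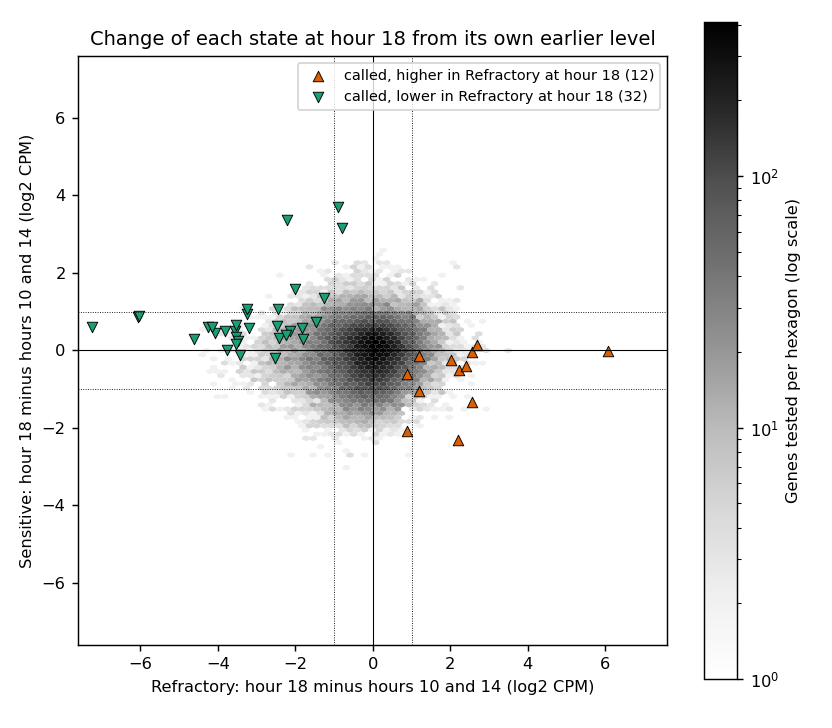
Change at hour 18 from the mean of hours 10 and 14 in Refractory birds (horizontal axis, log2 CPM) and in Sensitive birds (vertical axis, log2 CPM), with grey hexagons for the 37422 genes tested and triangles for the 44 called genes. Dotted lines mark a 2-fold change. Most triangles lie to the left and right of the centre, with a median Refractory change of -3.26 in the lower genes and 2.2 in the higher genes, and a few lie above or below it.

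The genes were then classed bird by bird. A state was said to depart where its mean at hour 18 was at least 2-fold from the mean of its 4 birds of hours 10 and 14 and both hour 18 birds lay outside the range of those 4. Only the Refractory birds departed in 34 of the 44 genes, against 13.1% of all genes tested. In 7 of these the Refractory birds were above their earlier level (4.11% of all genes tested) and in 27 below it (9%). Only the Sensitive birds departed in 4 genes (4.99% of all genes tested), upward in 3 (2.07%) and downward in 1 (2.92%), both states in 2 (1.2%) and neither in 4 (80.7%). The change was larger in Refractory birds in 10 of the 12 higher and 28 of the 32 lower genes, against 20395 of all 37422 genes tested. The same hour 18 birds chose the 44 genes, so these classes and counts describe the genes and carry no test. Left out in turn, the hour 18 birds left between 24 and 36 genes in the class where only Refractory birds departed. The number of 24 came without the Sensitive hour 18 bird 1, when 12 genes fell in the class where both departed.

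Among the genes where Refractory birds departed downward, TRINITY_DN94665_c5_g1, of 3 transcripts up to 952 nt, had the smallest p for that change. It had 9.40 and 14.1 CPM in the Refractory hour 18 birds, against 114 to 144 CPM in the 4 Refractory birds of hours 10 and 14 (log2 change -3.45 ± 0.294, SE, edgeR adjusted p = 3.81e-04). In Sensitive birds it had 107 and 182 CPM at hour 18, against 129 to 174 CPM at hours 10 and 14 (log2 change -0.08 ± 0.231, SE, edgeR adjusted p = 0.897). The Refractory hour 18 birds were below every earlier bird, and the Sensitive hour 18 birds lay on both sides of their own earlier range.

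TRINITY_DN86820_c1_g2, of 3 transcripts up to 539 nt, had one of the smallest p for the difference between the changes. It had 9.09 and 9.28 CPM in the Refractory hour 18 birds, against 104 to 205 CPM in Refractory birds of hours 10 and 14. In Sensitive birds it had 92.1 and 204 CPM at hour 18, against 86.1 to 127 CPM at hours 10 and 14. The change was -3.88 ± 0.381 in Refractory birds and 0.60 ± 0.284 in Sensitive birds on the log2 scale (SE), and the difference was -4.48 ± 0.461 (SE, edgeR adjusted p = 0.00368). For the 2 higher genes with the smallest p, that difference was 2.63 ± 0.335 in TRINITY_DN93464_c5_g3 (edgeR adjusted p = 0.00570) and 2.55 ± 0.351 in TRINITY_DN80742_c4_g1 (adjusted p = 0.00794).

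The 4 genes where only Sensitive birds departed are all named, TRINITY_DN88347_c0_g1 and TRINITY_DN86551_c4_g3 among them after their values were seen. TRINITY_DN93567_c0_g4, of 1 transcript of 1633 nt, was the called one. The Refractory birds had 1.25 and 1.72 CPM at hour 18, against 1.98 to 4.96 CPM at hours 10 and 14. The Sensitive birds had 41.1 and 46.6 CPM at hour 18, against 2.10 to 4.70 CPM at hours 10 and 14 (log2 change 3.77 ± 0.379, SE, edgeR adjusted p = 0.00609). At hour 22 it had 3.03 CPM in the Refractory bird, against 0.258 and 0.572 CPM in the Sensitive birds. The Sensitive hour 18 birds alone were high, and they were the only ones of 15 above 4.96 CPM.

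In TRINITY_DN88347_c0_g1 the Refractory hour 18 birds had 0 and 0.688 CPM, against 27.3 and 63.8 CPM in the Sensitive hour 18 birds. No bird of another hour had more than 6.96 CPM. This gene passed the count filter only through the Sensitive birds. Its Refractory birds of hours 10 and 14 had 0.191 to 1.21 CPM. These values lay near the 0.940 and 1.03 CPM that a count of 0 allows in the Refractory hour 18 birds. A fall in Refractory birds could thus hardly have been seen. In TRINITY_DN86551_c4_g3 the Refractory hour 18 birds had 1.88 and 3.44 CPM, against 32.5 and 40.4 CPM in the Sensitive hour 18 birds. Its Refractory birds of hours 10 and 14 had 42.7, 34.6, 24.5 and 0.540 CPM. Its Sensitive birds of those hours had 1.71 to 8.75 CPM. Of those Refractory birds, only the one at 0.540 CPM lay below the Refractory hour 18 birds. The class of this gene thus rested on that bird. The change in its Refractory birds was -3.06 ± 1.04 on the log2 scale (SE) and was not called (edgeR adjusted p = 0.123). The change in Sensitive birds was not called in either gene (edgeR adjusted p = 0.144 and 0.340 in the order given).

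The fourth gene, TRINITY_DN99467_c0_g5, was the reverse case. It had 22.9 and 22.7 CPM in the Refractory hour 18 birds, against 1.17 and 1.14 CPM in the Sensitive hour 18 birds, 19.8-fold higher in Refractory birds. At hours 10 and 14 the Refractory birds had 8.95 to 14.7 CPM. The Sensitive birds had 3.05 to 7.89 CPM at those hours, a change of -2.40 ± 0.442 on the log2 scale (SE) that missed the threshold with an edgeR adjusted p of 0.258. At hour 22 it had 8.30 CPM in the Refractory bird, against 22.7 and 19.4 CPM in the Sensitive birds, so the order of the states was the opposite of that at hour 18.

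Both states departed, in opposite directions, in TRINITY_DN98470_c0_g1 and TRINITY_DN99400_c5_g4, the second named after its values were seen. TRINITY_DN98470_c0_g1 had 72.4 and 55.0 CPM in the Refractory hour 18 birds, against 23.8 to 35.1 CPM in Refractory birds of hours 10 and 14, and 9.54 and 7.72 CPM in the Sensitive hour 18 birds, against 15.1 to 21.5 CPM in their birds of hours 10 and 14. The rise in Refractory birds was called (log2 change 1.22 ± 0.223, SE, edgeR adjusted p = 0.0105), and the change in Sensitive birds was not (-1.08 ± 0.256, SE, adjusted p = 0.343). TRINITY_DN99400_c5_g4 had 22.6 and 16.8 CPM in the Refractory hour 18 birds, against 132 and 269 CPM in the Sensitive hour 18 birds. Its earlier birds had 37.3 to 60.2 CPM in Refractory and 28.6 to 131 CPM in Sensitive birds, and neither change was called (adjusted p = 0.154 and 0.355).

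Neither state departed in TRINITY_DN93551_c6_g3, TRINITY_DN91975_c3_g2, TRINITY_DN84602_c0_g1 and TRINITY_DN77048_c0_g1, named after their values were seen. TRINITY_DN93551_c6_g3 fell short of the 2-fold limit in each state, with 235 and 242 CPM in the Refractory hour 18 birds against 43.0 and 43.6 CPM in the Sensitive hour 18 birds, and 110.1 to 164 CPM in earlier Refractory birds against 45.3 to 87.5 CPM in earlier Sensitive birds. The other three varied widely before hour 18. In TRINITY_DN91975_c3_g2 the 4 earlier Refractory birds had 12.3 to 607 CPM and the 4 earlier Sensitive birds had 20.2 to 258 CPM.

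**Figure D3:**
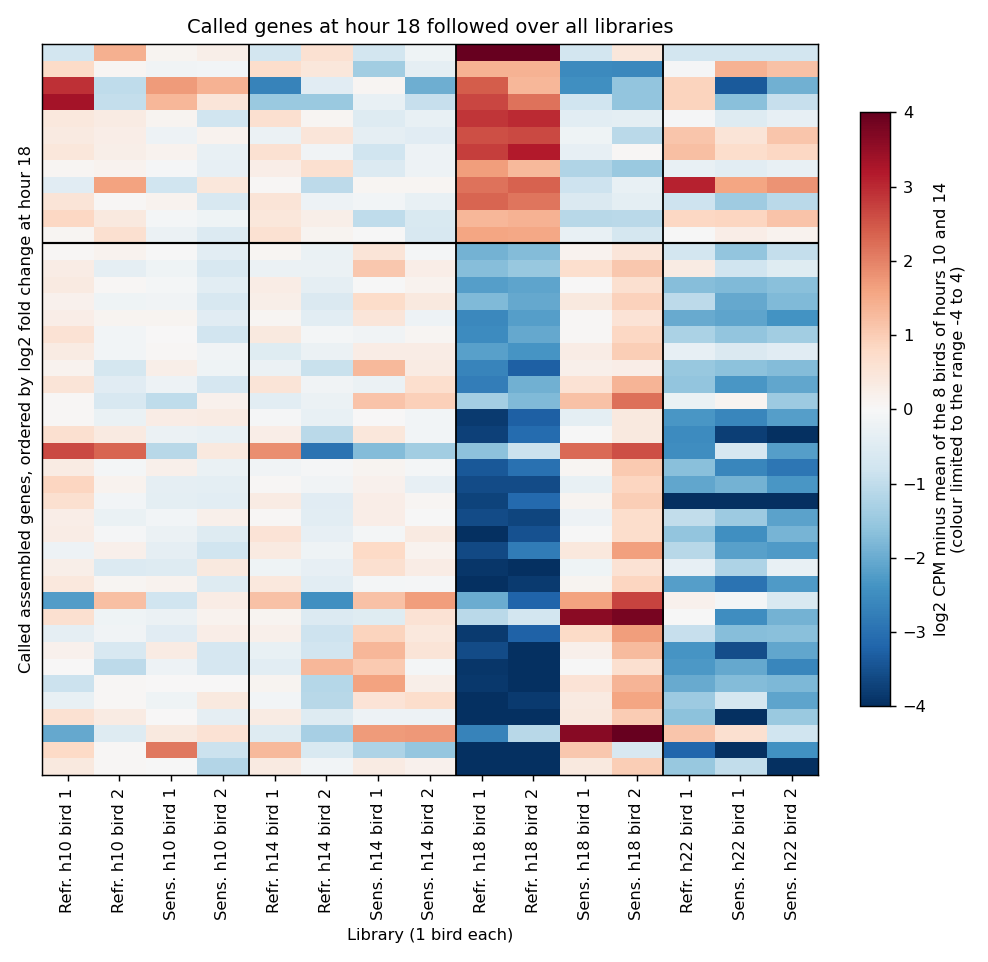
Levels of the 44 called genes (rows, ordered by log2 fold change at hour 18, with a line between the 12 higher and the 32 lower ones) in the 15 birds (columns, by hour, Refractory left of Sensitive), as log2 CPM minus the mean of the 8 birds of hours 10 and 14, in colour limited to -4 to 4. The lower genes are pale at hours 10 and 14, dark blue in the Refractory hour 18 birds (median -3.58 and -3.16), light red in the Sensitive hour 18 birds (0.26 and 0.98) and blue in all 3 birds of hour 22 (-1.55 in the Refractory bird, -1.84 and -1.98 in the Sensitive birds).

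Birds of hours 10, 14 and 22 did not choose the genes, and the state difference in them was small beside that of hour 18. The genes were chosen for a large difference at hour 18. A smaller one at other hours was thus largely set in advance and carries no test. Over the 12 higher genes, the median difference of Refractory minus Sensitive birds was 0.48 at hour 10, 0.60 at hour 14 and 0.33 at hour 22 on the log2 CPM scale, beside 3.18 at hour 18. Over the 32 lower genes it was 0.30, -0.31 and 0.48 at hours 10, 14 and 22, beside -3.92 at hour 18. Over all genes tested it was between -0.02 and 0.00 at each hour. The difference thus lay on the same side as at hour 18 in the higher genes at every hour, and in the lower genes at hour 14. Refractory birds lay above Sensitive birds without overlap in 7 of the 12 higher genes at hour 10 (18.5% of all genes tested), 7 at hour 14 (22.2%) and 8 at hour 22 (31.9%, with 1 Refractory bird), and below them in 0, 2 and 3. In the 32 lower genes they lay below Sensitive birds without overlap in 2 at hour 10 (20.3%), 12 at hour 14 (20.8%) and 2 at hour 22 (36.2%). They lay above Sensitive birds, against the direction of hour 18, in 11 of the 32 at hour 10, in 1 at hour 14 and in 19 at hour 22. At hours 10 and 22 the lower genes thus leaned the other way.

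None of the 44 genes was called between the states at hour 10, 14 or 22 with edgeR, and 0% of all genes tested were called at each hour. At an unadjusted p under 0.05, 3144 of all genes tested differed at hour 10, 2684 at hour 14 and 833 at hour 22, among them 6, 18 and 10 of the 44. DESeq2 called 52, 18 and 2 genes at hours 10, 14 and 22, and limma on log2(TPM + 1) called 0, 0 and 1. Of the 44, DESeq2 called 1 at hour 14 and limma called none. By direction, at an unadjusted edgeR p under 0.05, 6 of the 12 higher genes were higher in Refractory birds at hour 14 and 0 lower. Of the 32 lower genes, 10 were lower and 2 higher at that hour. Over all genes tested, 3.58% were higher and 3.59% lower. At hour 10, 3 of the higher genes were higher and 0 lower, and 1 of the lower genes was lower and 2 higher. The spread of the single Refractory bird of hour 22 was taken to equal that of the other groups.

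**Figure D4:**
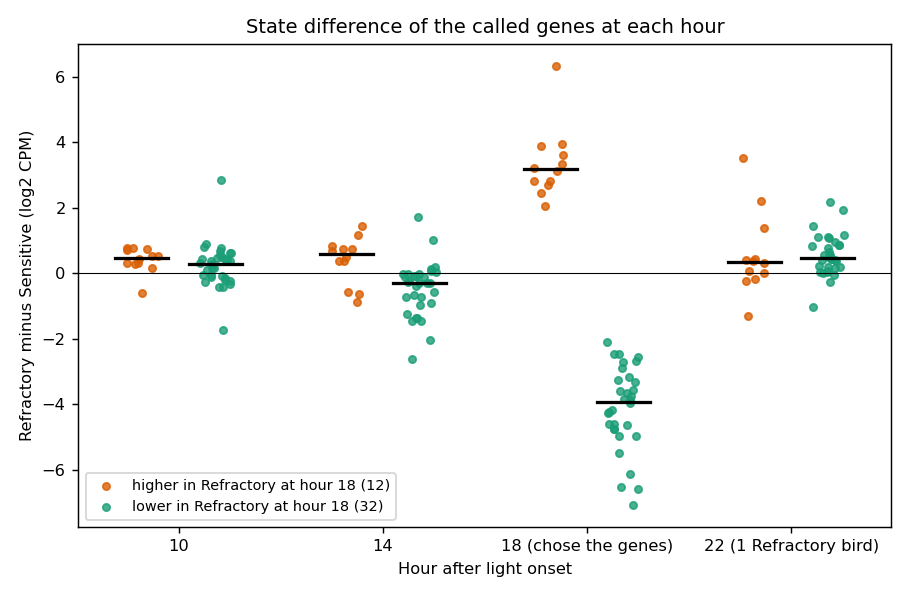
Difference of Refractory minus Sensitive birds (vertical axis, difference of group means in log2 CPM) at each hour after light onset for the 12 higher and the 32 lower genes, with 1 point per gene and black bars at the medians. Points at hour 18, which chose the genes, have medians of 3.18 and -3.92, and those at hours 10, 14 and 22 have medians between -0.31 and 0.60.

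At hour 22 the lower genes were low in both states. The 3 libraries of hour 22 were the deepest, with 8951449 reads in the Refractory bird, against 8068941 and 9403923 in the Sensitive birds. Their median r across genes with hours 10 and 14 was 0.871 in the Refractory bird, against 0.859 and 0.856 in Sensitive birds. These values lay near those of the Refractory hour 18 birds, 0.875 and 0.858. The part of depth in the fall at hour 22 was not tested. In 23 of the 32 lower genes, hour 22 birds of both states were below all birds of hours 10 and 14 of their own state. This held in 16.3% of all genes tested. The Refractory side of that count is 1 bird with no replicate, so its values are given without a count of calls. In Sensitive birds, 26 of the 32 fell at hour 22 from hours 10 and 14, with a median change of -2.04 on the log2 scale, against 10.5% of all genes tested that were lower and 20.8% that changed either way (edgeR, a contrast added after the hour 22 levels had been seen). This contrast shares the birds of hours 10 and 14 with the change of Sensitive birds at hour 18. The lower genes were more abundant than most, with a median of 121 TPM at hour 18 against 5.36 TPM over all genes tested. The shares over all genes are therefore not matched for level. The Refractory hour 18 birds stood lower still, below all 3 birds of hour 22 in 23 of the 32 lower genes (31.1% of all genes tested) and below all other 13 birds in 21 (6.81% of all genes tested). The genes were chosen for low values in these same birds, so the last 2 counts describe the genes and carry no test.

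TRINITY_DN94665_c5_g1 and TRINITY_DN86820_c1_g2 show this order. At hour 22 TRINITY_DN94665_c5_g1 had 27.3 CPM in the Refractory bird, against 22.4 and 29.8 CPM in the Sensitive birds. All 3 lay above the 9.40 and 14.1 CPM of Refractory birds at hour 18, and below every bird of hours 10 and 14 of either state. TRINITY_DN86820_c1_g2 had 26.6 CPM in the Refractory bird of hour 22, against 30.1 and 22.4 CPM in the Sensitive birds, again above the 9.09 and 9.28 CPM of Refractory birds at hour 18. In 9 of the 32 lower genes the Refractory hour 18 birds were not below all 3 birds of hour 22. One of these was TRINITY_DN93567_c0_g4, described above, and another was TRINITY_DN90861_c2_g6, named after its values were seen. The second had 5.33 and 8.25 CPM in the Refractory birds of hour 18, and at hour 22 it had 4.04 CPM in the Refractory bird, against 2.58 and 1.60 CPM in the Sensitive birds.

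The higher genes had no such order at hour 22. In 3 of the 12, hour 22 birds of both states were above all birds of hours 10 and 14 of their own state (15.7% of all genes tested). These were TRINITY_DN80742_c4_g1, TRINITY_DN85619_c1_g1 and TRINITY_DN91922_c0_g1. In TRINITY_DN80742_c4_g4 the hour 22 birds of both states were below those birds. In Sensitive birds 5 rose at hour 22 (10.3%), the same 3 with TRINITY_DN93551_c6_g3 and TRINITY_DN99467_c0_g5, and 2 fell, TRINITY_DN80742_c4_g4 and TRINITY_DN91975_c3_g2. Of these genes, those outside the rule are named after their values were seen. The Refractory hour 18 birds were above all other 13 birds in 8 of the 12 (5.35% of all genes tested). The Sensitive hour 18 birds were below all other 13 birds in 3 of the 12 (2.62%), TRINITY_DN93551_c6_g3, TRINITY_DN98470_c0_g1 and TRINITY_DN99467_c0_g5. They were above all others in 4 of the 32 lower genes (2.93%), TRINITY_DN88347_c0_g1, TRINITY_DN93567_c0_g4, TRINITY_DN99217_c3_g2 and TRINITY_DN99400_c5_g4. Such ranks of the hour 18 birds, which chose the genes, carry no test. In 31 of the 32 lower genes the Sensitive hour 18 bird 2 was above bird 1, against 18133 of all 37422 genes tested. Relative to the birds of hours 10 and 14, the median of the lower genes was 0.98 in bird 2 and 0.26 in bird 1 on the log2 scale. Without the Sensitive hour 18 bird 2 all 44 genes stayed called.

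The lower genes were assembled from shorter transcripts than most. The longest transcript had a median length of 643 nt in the 32 lower genes and 1120.5 nt in the 12 higher genes, against 1387 nt over all genes tested, and it was under 1000 nt in 24 of the 32 lower and 5 of the 12 higher genes, against 38.3% of all. Over all genes the median state difference on the log2 scale was -0.00 with a longest transcript of up to 300 nt, -0.22 at 300 to 500 nt, -0.27 at 500 to 1000 nt, -0.05 at 1000 to 2000 nt, 0.13 at 2000 to 4000 nt and 0.19 over 4000 nt. It was thus higher in the longer classes from 500 nt on, but near 0 in the shortest class. The Refractory hour 18 libraries had the shorter fragments given above. Among genes over 1000 nt alone, 115 were called, and all 15 of the 44 genes that long were among them. The same hour 18 birds chose the 44 genes, so this was partly set in advance. The part of fragment length and RNA quality in the differences beyond these fits was not tested. On the TPM scale, which takes length into account, the median level over the 4 hour 18 birds was 121 TPM in the lower genes and 156 TPM in the higher genes, against 5.36 TPM over all genes tested.

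**Figure D5:**
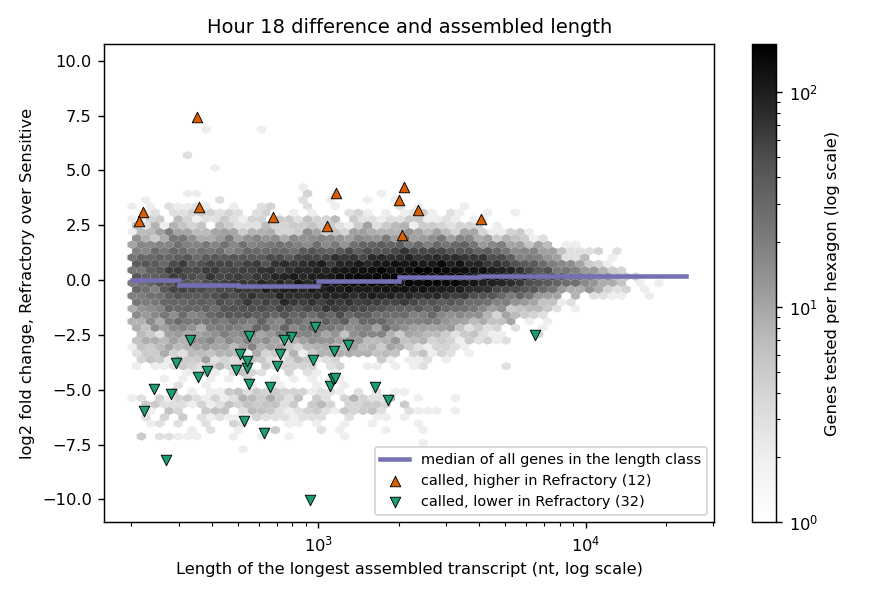
Difference between the states at hour 18 (vertical axis, log2 fold change of Refractory over Sensitive birds) against the length of the longest transcript of each assembled gene (horizontal axis, nt, log scale), with grey hexagons for the 37422 genes tested, purple lines for the median of all genes in 6 length classes and triangles for the 44 called genes. The purple line lies at -0.00 up to 300 nt, at -0.27 for 500 to 1000 nt and at 0.19 over 4000 nt, while the triangles lie beyond 2.05 above and -2.13 below. Hexagons below the main cloud, near -6, hold genes at 0 in both Refractory hour 18 birds.

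Assembled transcripts of a gene mostly had the same direction. A gene's count is the sum of its transcripts and the genes were chosen on it, so this was partly set in advance and carries no test. In the 13 lower genes with 2 or more transcripts past the count minimum, all 35 such transcripts were lower in Refractory birds. In the 4 higher genes with 2 or more, 14 of 17 were higher, and the 3 others all belonged to TRINITY_DN96356_c22_g1, named after its values were seen, which had 6262 and 6201 CPM in the Refractory hour 18 birds, against 1697 and 1293 CPM in the Sensitive hour 18 birds. Summed over its assembly cluster, the state difference stayed at 2-fold or more in 10 of the 12 higher and 28 of the 32 lower genes. In 3 of the higher and 14 of the lower genes no other gene of the cluster was tested. There the sum was nearly the called gene itself, so it could hardly differ and says nothing more. The 2 higher exceptions were the genes of cluster TRINITY_DN80742_c4 described above.

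The 4 lower exceptions, named after their values were seen, were TRINITY_DN82661_c2_g2, TRINITY_DN90861_c2_g6, TRINITY_DN99217_c3_g2 and TRINITY_DN99400_c5_g4. TRINITY_DN82661_c2_g2 had 0.313 and 0.344 CPM in the Refractory hour 18 birds, against 165 and 50.2 CPM in the Sensitive hour 18 birds, whereas its whole cluster had 147 and 216 CPM in the Refractory hour 18 birds, against 338 and 100.2 CPM in the Sensitive hour 18 birds. The cluster of TRINITY_DN99217_c3_g2 had 144 and 125 CPM in the Refractory hour 18 birds, against 129 and 124 CPM in the Sensitive hour 18 birds. In both clusters the values of the states overlapped, while the called gene itself was at or near 0 in Refractory birds. Tested as cluster sums, 12 clusters were called, 3 higher and 9 lower.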

How the data were processed

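Total RNA of the hypothalamus was sequenced, 1 library per bird, and libraries were grouped by the state and hour in their labels, which name separate birds. The authors trimmed reads with Trimmomatic, assembled them with Trinity, reduced redundancy with CD-HIT and pseudoaligned them with kallisto (version not given in the sources used here) against a single index built from all samples. For every assembled transcript the authors deposited its length, effective length, unnormalized estimated count and TPM, an abundance per length that kallisto scales to the same total in each library. No genome, annotation or sequence was used. Kallisto divides reads among similar sequences, so levels of near-identical genes are uncertain.

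Estimated counts were summed per assembled gene (identifier without the transcript number) and rounded to whole numbers. Genes needed a count of 5 or more in 2 of the 4 hour 18 libraries, so a gene could pass through the birds of a single state. The states were compared in those 4 libraries in edgeR 4.0.16 under R 4.3.3, using TMM factors and the quasi-likelihood test. P-values were adjusted by Benjamini-Hochberg over all genes tested, and 0.05 was the highest adjusted p called. The study's pairwise design was followed, and counts replaced its TPM because the test needs counts. Changes at hour 18, their difference, and state differences at other hours came from 1 fit of all 15 libraries in 8 groups. Standard errors were taken from the fold change and its F statistic. CPM were scaled by TMM factors over 15 libraries, with a prior count of 2 on the log2 scale. Depth was 3176062 to 9403923 reads per library, and a count of 0 allows up to 3 counts, for counting error only. The tests were tried on simulated counts.

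Per comparison at most 2 higher and 2 lower genes were named, those with the smallest p among called genes whose birds do not overlap at hour 18, or, for the changes and their difference, among the 44. With none called, those with the smallest unadjusted p were named. Genes named outside this rule are marked as chosen with their values in view, and not every gene behind a small count is named. The genes followed, the comparisons and the rules were chosen with earlier results of these data known. Alternatives were RLE factors, other filters, DESeq2 1.42.0, the exact test, limma 3.58.1 on log2 TPM with a pseudocount of 1 or 0.1, thinning, the 10 most abundant genes left out, assembled transcripts, omission of each bird and a block for the bird number. Cluster sums, an effective length offset, genes over 1000 nt, the genes called in the fit of all libraries and the hour 22 contrast were added after the data had been seen. Figures come from matplotlib 3.10.9 (Python 3.11.15).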

Additional observations from a re-analysis of the deposited data

Results flagged for a closer look

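When the change at hour 18 from hours 10 and 14 was tested for a difference between the states (edgeR, Benjamini-Hochberg adjusted p of 0.05 or less), 406 genes were called, 48 with a more upward and 358 with a more downward change in Refractory birds, and in all 9 genes named by rule. On the log2 scale it was 2.63 in TRINITY_DN93464_c5_g3, 2.55 in TRINITY_DN80742_c4_g1, 3.28 in TRINITY_DN99467_c0_g5 and 2.30 in TRINITY_DN98470_c0_g1. It was -4.98 in TRINITY_DN73660_c0_g1, -4.34 in TRINITY_DN97353_c1_g6, -3.36 in TRINITY_DN94665_c5_g1, -4.87 in TRINITY_DN93567_c0_g4 and -4.48 in TRINITY_DN86820_c1_g2. The 9 genes had adjusted p between 0.00368 and 0.0164. Over all genes tested, 1.08% were called (0.128% more upward and 0.957% more downward). The 9 genes were named from those called between the states at hour 18, a comparison that is part of this difference. Some of them were also named by the smallest p for this difference itself. That all 9 were called was therefore partly set in advance and carries no test. None of these calls was left without the Refractory hour 18 bird 1, when the smallest adjusted p over all genes was 0.0532.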

How the results depend on the processing

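The number of genes called at hour 18, 44 in the 4 libraries, depended on almost every setting. It was 169 with RLE factors, 1838 without a filter, 116 with a minimum of 10, 1357 with DESeq2, 2051 with edgeR's exact test, 345 with limma on log2(TPM + 0.1), 3251 in the fit of all 15 libraries and 122 in thinned libraries. It was 0 with limma on log2(TPM + 1), with a smallest adjusted p of 0.0532, and 0 for assembled transcripts. With settings added after the data had been seen it was 12 for cluster sums, 189 with an effective length offset and 115 for genes over 1000 nt. Without 1 bird it was 0 to 4926. All 44 genes kept their sign under every one of these settings that tested them as genes. Their birds did not overlap at hour 18, so this was largely set in advance. All 44 stayed called with RLE factors, without a filter, with a minimum of 10, DESeq2, the exact test, thinning and the offset. Without the 10 most abundant genes it was 38, all of them among the 43 of the 44 genes still tested. Of the 44, 6 were called with limma on log2(TPM + 0.1) and 43 in the fit of all libraries. Genes with an unadjusted p under 0.05 numbered 10163 in the fit of all libraries, 3614 over 1000 nt, and 4269 to 9442 without 1 bird. The share of genes whose birds do not overlap was 55.1% with a minimum of 10, 24.8% without a filter and 51.7% in thinned libraries. The cause of these shifts was not tested.

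The number of genes that changed in Refractory birds was 2203 with limma on log2(TPM + 1) and 293 to 1646 without 1 bird, the lowest without the Refractory hour 18 bird 2, and 323 without bird 1. In Sensitive birds it was 1 with a minimum of 10, 4 with limma on log2(TPM + 0.1) and 0 to 612 without 1 bird. There the balance turned to lower genes with DESeq2, which called 113 (42 higher and 71 lower), and without the Sensitive hour 18 bird 1, with 612 (194 higher and 418 lower). The difference between the changes was called in 1060 genes with DESeq2, 620 with limma on log2(TPM + 0.1) and 0 to 1905 without 1 bird. Between the states, DESeq2 called 52 genes at hour 10, 18 at hour 14 and 2 at hour 22, limma on log2(TPM + 0.1) called 3 at hour 14 and 3 at hour 22, and limma on log2(TPM + 1) called 1 at hour 22. Without 1 bird these counts were 0 at hours 10 and 22 and 0 to 1 at hour 14. The counts per class of the 44 genes without 1 hour 18 bird were 24 to 36 for Refractory birds alone, 2 to 6 for Sensitive birds alone, 0 to 12 for both and 2 to 4 for neither. The class of Sensitive birds alone held 2 genes at 1.5-fold. Both states departed in 7 genes at 1.5-fold, 0 at 4-fold, 1 in thinned libraries, and 10 and 1 with hour 10 or hour 14 alone as the earlier level. Neither departed in 10 genes at 4-fold, and in 1 with hour 10 alone and 1 with hour 14 alone.

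Bird numbers are shared between groups as labels only. The deviations of same-numbered birds at hour 18 had r = 0.14 between the states, across genes. With the replicate block 2464 genes were called at hour 18, all 44 among them, 1 changed in Sensitive birds and 249 had a called difference between the changes.

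Depth limits what can be seen. A count of 0 allowed 0.940 and 1.03 CPM in the Refractory hour 18 birds, against 0.584 and 0.681 CPM in the Sensitive hour 18 birds. In both Refractory hour 18 birds 605 genes were at 0, against 36 at 0 in both Sensitive ones. A gene at 0 in both birds of a state passed the count filter only through the other state, so these numbers carry no test. With 2 birds a group, p-values rest on few degrees of freedom and on a shared estimate of spread, and a gene that was not called is not shown to be alike in both states.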

Other observations

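The fit of all 15 libraries, which shares the spread over 8 groups, called 1177 genes as higher and 2074 as lower in Refractory birds at hour 18. Only Refractory birds departed from their own earlier level in 20.4% of these higher and 61.1% of these lower genes, and only Sensitive birds in 13.3% and 3.52%. Neither state departed in 63.6% of these higher genes and in 623 of the 2074 lower ones. Over all genes tested, only Refractory birds departed in 13.1%, only Sensitive birds in 4.99% and neither in 80.7%. These shares describe genes chosen on the same hour 18 birds and carry no test.

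The other gene that changed in Sensitive birds at hour 18, TRINITY_DN81554_c0_g3, was not among the 44. In Refractory birds it had 85.9 and 112 CPM at hour 18, against 11.4 to 30.8 CPM at hours 10 and 14. In Sensitive birds it had 181 and 249 CPM at hour 18, against 22.7 to 63.7 CPM at hours 10 and 14 (log2 change 2.14 ± 0.269, SE, edgeR adjusted p = 0.0398). Both states were thus higher at hour 18 than before, and all 3 birds of hour 22 were higher again, with 364 CPM in the Refractory bird, against 333 and 292 CPM in the Sensitive birds. The difference between the states at hour 18 was not called (log2 fold change -1.13, edgeR adjusted p = 0.148).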
